A study of Mus musculus with 12 samples.

Results

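The contrast described here is the heat effect in liver minus the heat effect in brain, that is, the log2 fold change of heat stress over control in liver less the same log2 fold change in brain. It was computed from all 12 of the 12 libraries of the series, 3 for each tissue and treatment. Of 25239 gene symbols with a count, 15824 passed the filter on low counts and were tested, and 11322 of these passed it within brain and within liver and are called measured in both tissues. A positive value means that heat stress moved the gene up more, or down less, in liver than in brain, and a negative value means the reverse.

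The animals were male C57BL6/J wild-type (WT) mice aged 24 months, and this holds for control and heat stress groups of brain and of liver alike. The heat stress mice spent 3 hours a day for 15 days at 40 °C and 60% relative humidity, as a model of a periodic heat wave, and the control mice did not. Polyadenylated RNA was sequenced from a piece of frozen tissue, and the labels do not name the region of the brain or the lobe of the liver. They also do not state whether brain and liver libraries of the same replicate number came from 1 mouse. The labels of liver control replicate 2 and liver heat stress replicates 1 and 3 carry an unexplained suffix, 2nd. No brain label carries it, and in liver it overlaps in part with the treatment. P-values measure the spread between these 3 libraries per group. In bulk tissue, fewer cells of a type and less RNA per cell cannot be told apart.

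Total counts per library lay between 10466198 and 15609040, and the defining markers of each tissue were where the labels put them, with Alb at 618111 to 1344219 counts in the liver libraries and 7 to 107 in brain. Liver control replicate 1 and liver heat stress replicate 2 stood apart because they carried transcripts of skeletal muscle, with 15 muscle markers summing to 945 and 4614 in counts scaled to library size (CPM) against 2.26 to 13.8 in the other 4 liver libraries. Liver control replicate 1 also held 132 counts of the neuronal gene Snap25, where the other liver libraries held 0 to 14. Without both of them 1179 of the 11322 genes (10.4%) lay above 0 and 922 (8.14%) below at an unadjusted p under 0.05, more than with all libraries. Brain control replicate 3 stood apart in markers of habenula and thalamus, which summed to 522 CPM there against 129 to 240.1 in the other brain libraries. Marker sums of several regions and cell types that differed between the groups, in brain and in liver, stand beside the results they touch.

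Animal cells meet protein-damaging stress with separate programmes in separate compartments. In the cytosol, heat shock factors switch on chaperones such as HSP90 and HSP105 through heat shock elements, and in the endoplasmic reticulum the unfolded protein response switches on chaperones such as BiP through the endoplasmic reticulum stress element. Liver is the body's main source of plasma proteins and depends on the second programme for secretion, and it also stores iron, handles zinc through metallothioneins and keeps a feeding-driven clock. Brain takes up iron through the same receptor as other tissues but behind a blood-brain barrier made of endothelium, and its fluid is made by the choroid plexus. The comparison of tissues asks which of these programmes moved with heat in liver, in brain, or in opposite ways.

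Across the 11322 genes measured in both tissues, the difference of the heat effects had a median of -0.020 and a middle range of -0.30 to 0.27 on the log2 scale, with a median standard error of 0.30. The heat effects of the tissues were barely correlated over these genes, with a Pearson r of -0.043 and a Spearman rho of -0.071 across genes, which are not independent replicates. By the quasi-likelihood test of edgeR, Benjamini-Hochberg adjusted over all genes, 1 of the 15824 genes, Tfrc, differed between the tissues at an adjusted p under 0.05, which is 0.00632% of those tested. At an unadjusted p under 0.05 there were 1525 genes (9.64%), of which 590 (3.73%) lay above 0 and 935 (5.91%) below. This split moved with the scaling, since size factors of the DESeq2 kind gave 777 above and 773 below, and TMM within each tissue gave 774 and 817. The count was 983 without brain control replicate 1 and 3041 without liver control replicate 1, and in the latter case 1828 and 1213 genes lay above and below 0. The named genes below that lack an adjusted p under 0.05 are descriptions of single genes, sorted by the unadjusted p. DESeq2 on the same counts called 43 genes at an adjusted p under 0.05, 28 above 0 and 15 below.

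Genes were sorted by the unadjusted p of the difference and of each tissue's own heat effect. Of the 11322 genes, 34 (0.3%) moved in opposite ways, 437 (3.86%) had a heat effect at p under 0.05 in liver alone, 382 (3.37%) in brain alone, 3 (0.0265%) in the same direction with a different size, and 313 (2.76%) in neither tissue taken by itself. An effect in a single tissue means that the other tissue's p was 0.05 or more, which does not show an absent effect there. Within liver by itself 14 genes (0.0885%) passed an adjusted p under 0.05 and within brain none did, where 1138 of 11322 genes (10.1%) had an unadjusted p under 0.05 by edgeR, against 970 (8.57%) in liver. The control and heat stress libraries did not overlap for 10.9% of these genes in liver and 27.4% in brain. Every one of the 14 liver genes was measured in both tissues and had a difference at an unadjusted p under 0.05.

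**Figure D1:**
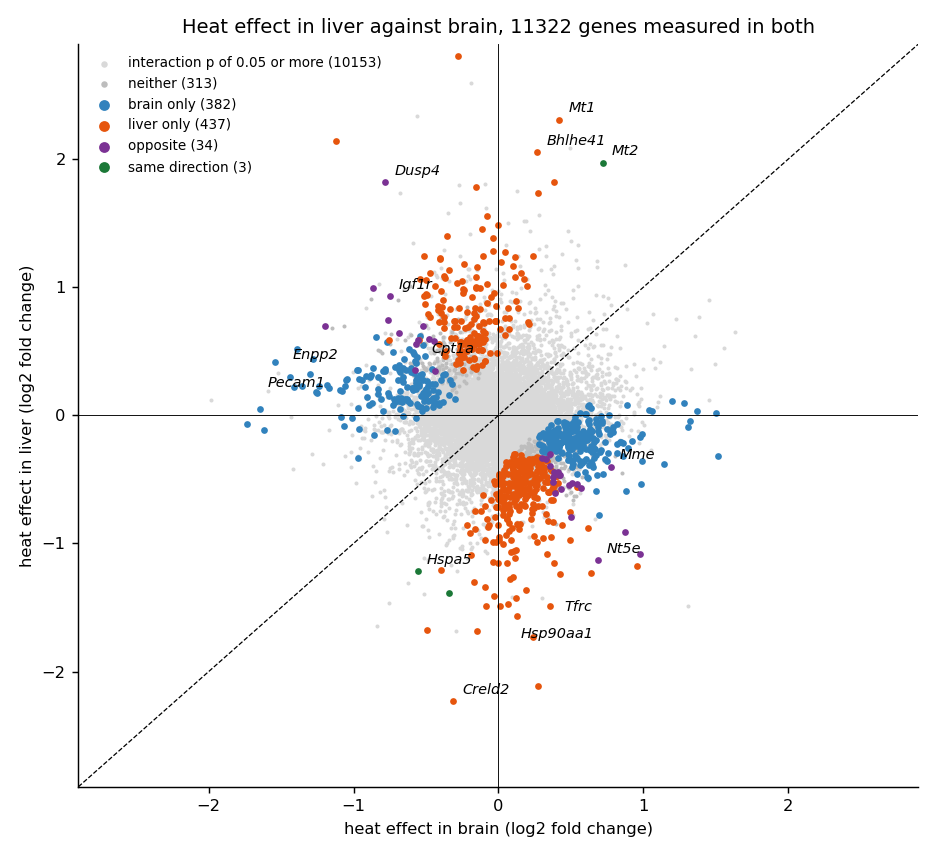
Heat effect in liver (vertical axis, log2 fold change) against heat effect in brain (horizontal axis, log2 fold change) for the 11322 genes measured in both tissues, coloured by the sorting described in the text, with the dashed line marking equal effects. The labelled liver genes Tfrc, Creld2, Hsp90aa1, Mt1 and Bhlhe41 lie further from 0 on the liver axis than on the brain axis, and Dusp4, Igf1r, Nt5e and Mme lie in the quadrants of opposite effects.

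Tfrc encodes the transferrin receptor, which brings iron-loaded transferrin into cells. In liver it stood at 82.5, 98.6 and 90.9 CPM (TMM-normalised) in the control libraries and at 39.2, 24.2 and 33.8 in the heat stress libraries. In brain it stood at 91.4, 85.1 and 89.0 CPM in control and at 114, 122 and 104 under heat stress. Every heat stress liver lay below every control liver, and every heat stress brain lay above every control brain. The heat effect fell by 1.49 on the log2 scale in liver and was 0.36 (95% interval -0.0041 to 0.72) in brain, and the difference was -1.84 ± 0.24 (SE), with an adjusted p of 0.049 (Benjamini-Hochberg, quasi-likelihood test of edgeR). Over 25 alternatives the difference lay between -2.0 and -1.49 and the adjusted p between 2.1e-07 and 0.37, under 0.05 in 7 of them. Without the liver libraries that carried muscle transcripts it was -1.73, with an adjusted p of 0.0072. With the replicate number as a block the adjusted p was 0.36, and with a block for a shared mouse 0.21.

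The gene lies at chr16:32608920-32632794 on the plus strand of GRCm38, and its longest transcript has a 3' UTR at chr16:32630334-32632794. Iron regulatory proteins bind hairpins in this UTR when iron is low and keep the transcript from decay, which is why its hairpins are shown. The letters CAGTG occur 8 times in the UTR of that transcript, and at 4 of these a loop of 6 bases is flanked by 5 bases on either side that can pair with each other, with a C just before the stem. The capitals mark the loop and its last base varies among the hairpins.
Tfrc hairpin 1, chr16:32631221-32631246: ttatcggaagCAGTGCcttccataat
Tfrc hairpin 2, chr16:32631600-32631625: ttatcgggagCAGTGTcttccataat
Tfrc hairpin 3, chr16:32631665-32631690: atatcggagaCAGTGAtctccatatg
Tfrc hairpin 4, chr16:32631712-32631737: ttatcgggaaCAGTGTttcccataat

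Of 14 listed genes of iron handling, Tfrc among them, 12 were measured in both tissues, and at an unadjusted p under 0.05 2 lay above 0 and Tfrc below, against 4.02% and 6.31% of all genes. Id1, a target of BMP signalling, stood at 10.8, 5.84 and 10.4 CPM in control liver and 19.5, 18.7 and 26.0 in heat stress liver, against 10.1, 10.3 and 13.9 in control brain and 13.5, 16.2 and 10.9 in heat stress brain, a difference of 1.01 ± 0.35. Trf, the plasma iron carrier transferrin, had a heat effect of 0.46 in liver and -0.57 in brain. The ferritin chains, which store iron and whose transcripts carry the same kind of hairpin, did not separate the tissues at that p. Fth1 had heat effects of 0.14 in liver and 0.34 in brain, and Ftl1 of 0.49 and 0.45.

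Of 30 listed chaperones and response genes of the endoplasmic reticulum all were tested and 28 were measured in both tissues, and 8 of these 28 had a difference below 0 at an unadjusted p under 0.05 and 1 above, against 6.31% and 4.02% of all genes measured in both. The median heat effect of the 28 was -0.39 in liver and -0.16 in brain, and the median difference was -0.37 against -0.020 over all 11322 genes. In liver by itself 15 of 28 were lower at an unadjusted p under 0.05 and 1 was higher, and in brain 6 were lower and 1 higher, where 5.24% and 4.2% of all genes measured in both were lower at that p and 3.33% and 5.86% higher. Every heat stress library lay below every control for 15 of the 28 in liver and 12 in brain, where 10.9% and 27.4% of all genes did not overlap in either direction. No member passed an adjusted p of 0.05 for the difference in the main edgeR fit, and DESeq2 called Creld2 and Hsp90b1. With the suffix as a covariate edgeR called Creld2 (adjusted p 0.010) and Manf (0.013), and without liver control replicate 3 Creld2 (0.043).

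Creld2, a secreted chaperone-like factor of the stressed reticulum, stood at 92.5, 126 and 67.5 CPM in control liver and 20.3, 16.3 and 24.2 in heat stress liver. In brain it stood at 9.29, 9.30 and 8.04 CPM in control and 5.89, 7.30 and 8.25 under heat stress. The liver groups were far apart and the brain groups overlapped. The heat effect was -2.23 (95% interval -2.72 to -1.74) in liver and -0.31 (95% interval -0.81 to 0.19) in brain, a difference of -1.92 ± 0.32 with an adjusted p of 0.17 (Benjamini-Hochberg, quasi-likelihood test of edgeR) and 6.5e-04 by DESeq2. Over the alternatives its adjusted p lay between 6.5e-04 and 0.64.

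Manf, a neurotrophic factor released from the stressed reticulum, went from 224, 329 and 195 CPM in control liver to 110.1, 63.6 and 122 under heat stress, and was 23.4, 28.8 and 26.1 in control brain and 24.0, 24.6 and 24.9 in heat stress brain. Sdf2l1, a partner of the BiP chaperone cycle, stood at 74.3, 116 and 60.2 CPM in control liver and 28.2, 23.3 and 26.9 under heat stress, and at 5.96, 7.05 and 7.70 in control brain and 5.39, 4.20 and 5.09 in heat stress brain. In liver both genes separated the groups, and in brain Manf overlapped while Sdf2l1 was lower in every heat stress library. The 95% interval of Manf in brain was -0.60 to 0.43. The differences were -1.25 ± 0.34 for Manf, -1.18 ± 0.32 for Sdf2l1, -0.98 ± 0.24 for the HSP70 relative Hspa13, -0.88 ± 0.25 for the lumenal HSP90 Hsp90b1 and -0.58 ± 0.22 for the disulfide isomerase Pdia3. With correction for length and GC content Hspa13 had -0.63. Hspa5, which encodes BiP, was lower in both tissues, at -1.22 in liver and -0.56 in brain, and its difference was -0.66 ± 0.25. Calr, a calcium-binding lectin chaperone, had similar heat effects, at -0.51 in liver and -0.58 in brain. Sec61b, a subunit of the translocation channel, and Herpud1, which acts in the degradation of misfolded proteins, were the other genes at p under 0.05. Sec61b had -0.25 and 0.48, and Herpud1, the member above 0, had 0.51 and -0.22.

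The endoplasmic reticulum stress element, here the letters CCAAT and, after a gap of 9 bases, CCACG on either strand, was looked for in the RefSeq promoters of GRCm38.p6, which span 250 bases before to 50 after each start. It occurred in 39 of 32851 promoters (0.119%) and in 8 of the 24 matched chaperone genes measured in both tissues (33.3%), namely Calr, Canx, Creld2, Dnajc3, Hsp90b1, Hspa5, Pdia6 and Syvn1. It was found in members with large differences, Creld2 (-1.92) and Hsp90b1 (-0.88), and in members near 0, Calr (0.069) and Syvn1 (0.19). A match describes the letters and is not a measured binding site. The promoters of Creld2, with 1 match, and Hsp90b1, with 2, are shown with the matches in capitals as the members with the element and the largest differences.
Creld2 promoter, chr15:88819396-88819695, plus strand: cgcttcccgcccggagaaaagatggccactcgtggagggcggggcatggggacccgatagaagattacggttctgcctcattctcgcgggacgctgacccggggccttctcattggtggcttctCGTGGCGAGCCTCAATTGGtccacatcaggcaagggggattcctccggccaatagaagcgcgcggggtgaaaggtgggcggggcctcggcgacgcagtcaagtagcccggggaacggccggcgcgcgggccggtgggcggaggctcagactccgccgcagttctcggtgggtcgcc
Hsp90b1 promoter, chr10:86705395-86705694, minus strand: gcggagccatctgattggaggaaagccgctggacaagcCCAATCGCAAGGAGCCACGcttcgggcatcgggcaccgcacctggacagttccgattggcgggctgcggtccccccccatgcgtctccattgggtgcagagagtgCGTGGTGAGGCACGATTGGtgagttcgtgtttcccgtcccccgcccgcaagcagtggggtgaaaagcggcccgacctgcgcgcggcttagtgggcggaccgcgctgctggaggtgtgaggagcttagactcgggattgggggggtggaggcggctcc

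The median of the chaperone list kept its sign when each library was corrected for transcript length and GC content (-0.22, with 8 below and 1 above) and without the liver libraries with muscle transcripts (-0.25, with 9 below and 2 above). These counts are at an unadjusted p under 0.05. Over all genes measured in both tissues the corresponding medians were 0.020 and 0.026. With the correction 3.5% of all genes lay below 0 and 4.33% above, and without those libraries 8.14% and 10.4%.

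Of 24 listed heat shock proteins and co-chaperones, which include the mitochondrial Hspd1 and Hspe1 beside cytosolic members, 23 were measured in both tissues. At an unadjusted p under 0.05, 6 of the 23 lay below 0 and none above, against 6.31% and 4.02% of all genes. The median was -0.14 against -0.020. With correction for length and GC content 4 lay below 0, against 3.5% of all genes. The median was then -0.030, against 0.020 for all genes. Hsp90aa1, the inducible cytosolic HSP90, stood at 258, 310.0 and 292 CPM in control liver and at 96.0, 122 and 72.0 under heat stress. In brain it stood at 567, 756 and 681 CPM in control and 836, 736 and 615 under heat stress. Heat stress livers lay below every control liver, and the brain groups overlapped. The heat effects were -1.57 (95% interval -2.04 to -1.09) in liver and 0.13 (95% interval -0.33 to 0.59) in brain, and the difference of -1.69 ± 0.31 had an adjusted p of 0.27 (Benjamini-Hochberg, quasi-likelihood test of edgeR), with 5.3e-05 to 0.70 over the alternatives.

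Hsph1, which encodes the HSP105 nucleotide exchange factor, was lower in both tissues and more so in liver. Its levels were 59.6, 67.7 and 61.4 CPM in control liver, 24.4, 21.2 and 26.5 in heat stress liver, 206, 180.4 and 185 in control brain and 163, 134 and 155 in heat stress brain. The groups did not overlap in either tissue, and the heat effects were -1.39 in liver and -0.34 in brain, a difference of -1.05 ± 0.20. Dnaja1, an HSP40 co-chaperone, and Hsf2, a heat shock factor, had differences of -0.68 and -0.65, which became -0.41 and -0.12 with correction for length and GC content and then had an unadjusted p of 0.12 and 0.66 by edgeR. Hspe1, the mitochondrial co-chaperone of HSP60, had -0.27 in liver and 0.53 in brain. The constitutive chaperones Hspa8 (-0.14) and Hsp90ab1 (0.21) had differences at unadjusted p of 0.63 and 0.49 by edgeR.

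The heat shock element, searched as GAA, TTC and GAA with gaps of 2 bases on either strand, occurred in 198 of 32851 promoters (0.603%) and in 4 of the 17 matched heat shock genes measured in both tissues (23.5%), which were Chordc1, Hspd1, Hspe1 and Hsph1. Their differences ran from -1.05 for Hsph1 to -0.12 for Hspd1. Hsph1 is shown with its match in capitals as the member with the largest difference of the 4.
Hsph1 promoter, chr5:149636287-149636586, minus strand: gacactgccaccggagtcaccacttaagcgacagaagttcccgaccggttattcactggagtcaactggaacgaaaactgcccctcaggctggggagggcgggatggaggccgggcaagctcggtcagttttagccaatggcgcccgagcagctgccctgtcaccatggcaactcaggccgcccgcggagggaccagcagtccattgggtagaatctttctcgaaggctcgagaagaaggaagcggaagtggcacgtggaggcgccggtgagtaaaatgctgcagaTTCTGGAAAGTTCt

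**Figure D2:**
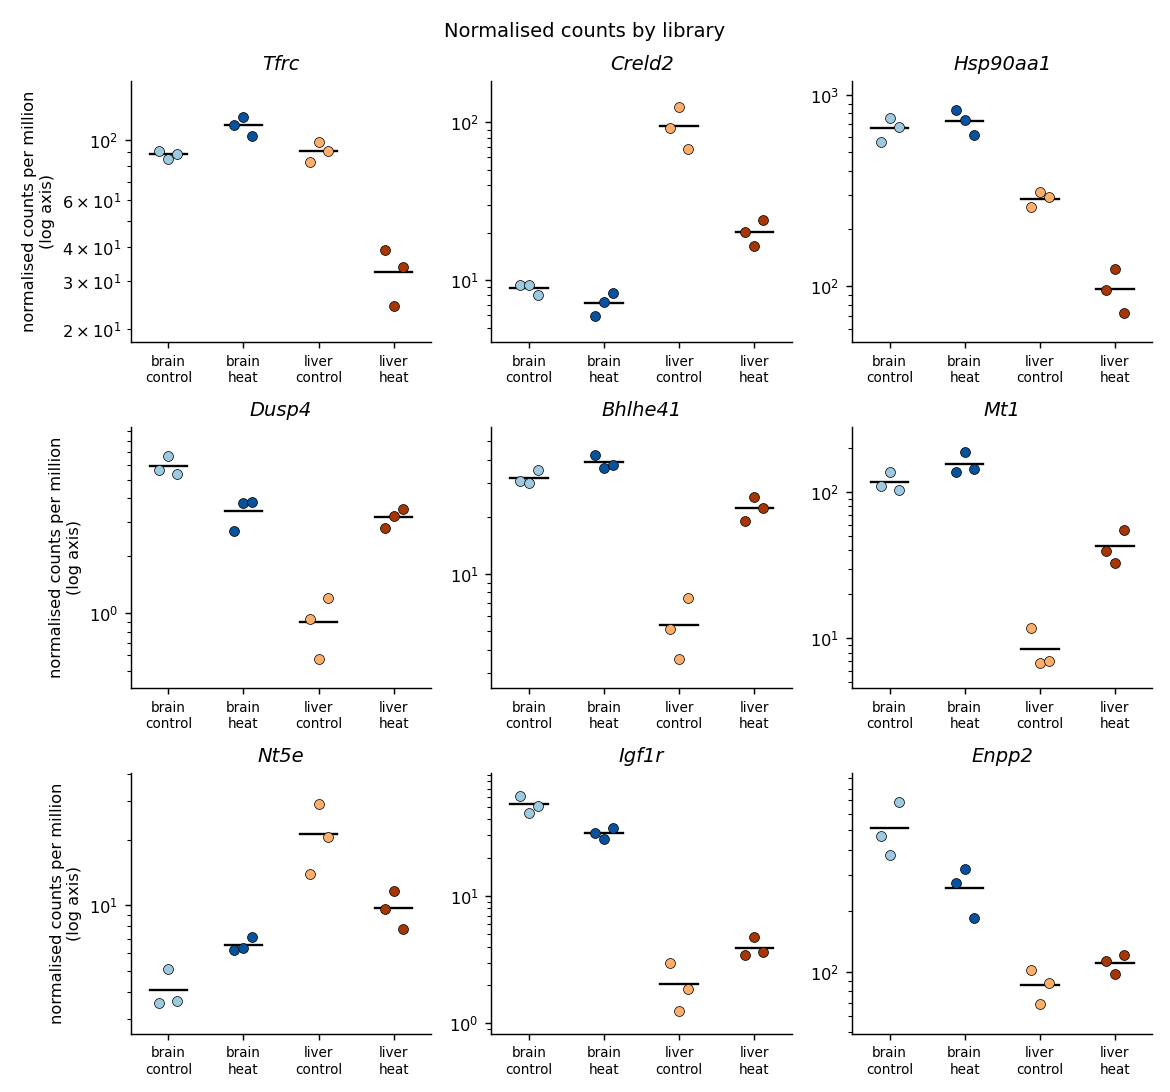
TMM-normalised CPM (vertical log axes) of 9 genes in each of the 12 libraries, as points by group in order of replicate, with lines at the group means. Tfrc, Creld2 and Hsp90aa1 are low in the heat stress livers, Mt1 and Bhlhe41 are high there, Dusp4 and Igf1r move up in liver and down in brain, Nt5e moves the other way, and Enpp2 is lower in the heat stress brains.

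Genes that moved in opposite ways were few. Of the 34, 13 (0.115% of the 11322) were higher in liver and lower in brain, and 21 (0.185%) were lower in liver and higher in brain. Without overlap between the groups in either tissue, 142 genes (1.25%) went opposite ways and 119 (1.05%) the same way. The count of 34 rested on single libraries, with 240 without liver control replicate 1, 14 without liver control replicate 2, 83 without liver heat stress replicate 1, 22 without liver heat stress replicate 3, 10 without brain control replicate 1 and 18 without brain heat stress replicate 1. The split by direction also turned, to 21 and 14 with TMM within each tissue, 17 and 15 with size factors of the DESeq2 kind, 23 and 19 with DESeq2 and 17 and 7 with correction for length and GC content. With that correction there were 24, of which 11 were among the 34. Angptl2, Dusp4 and Igf1r were sorted as opposite in each of the 24 alternatives that fit both tissues.

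Dusp4, a phosphatase that switches off MAP kinases, stood at 0.927, 0.573 and 1.20 CPM in control liver and 2.78, 3.23 and 3.51 under heat stress. In brain it stood at 5.63, 6.69 and 5.36 CPM in control and 2.70, 3.77 and 3.80 under heat stress. The groups separated in both tissues, with heat effects of 1.82 in liver and -0.78 in brain. The difference of 2.60 ± 0.40 had an adjusted p of 0.15 (Benjamini-Hochberg, quasi-likelihood test of edgeR), and 0.049 to 0.52 over the alternatives. That range leaves out DESeq2, which gave this gene no adjusted p. The control liver levels of Dusp4 rest on few reads.

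Igf1r, the receptor for insulin-like growth factors, stood at 2.99, 1.26 and 1.86 CPM in control liver and 3.42, 4.79 and 3.62 under heat stress, and at 61.5, 44.8 and 51.1 in control brain and 31.3, 28.1 and 34.2 in heat stress brain. Angptl2, a secreted angiopoietin-like protein, stood at 18.3, 11.6 and 15.7 CPM in control liver and 23.1, 31.0 and 22.2 under heat stress, and at 4.65, 3.44 and 4.30 in control brain and 2.26, 3.04 and 2.00 in heat stress brain. Both genes were higher in every heat stress liver and lower in every heat stress brain than in any control of that tissue. The same held for the receptor genes Tgfbr2 and Notch1 and the actin regulator Fmnl1, with heat effects of 0.59, 0.36 and 0.64 in liver and -0.48, -0.58 and -0.69 in brain. Rnaset2b, a ribonuclease gene with a near-identical neighbouring copy so that its counts are uncertain, had 0.70 and -1.20, and the calcium pump Atp2a3 had 0.99 and -0.86 with overlapping liver groups. Cpt1a, the gate of mitochondrial fatty acid oxidation, went from 310.4, 260.0 and 293 CPM to 328, 412 and 356 in liver and from 27.0, 22.3 and 23.5 to 17.0, 20.4 and 16.3 in brain, a difference of 0.79 ± 0.23. It was the sole member at an unadjusted p under 0.05 among the 22 fatty acid oxidation genes measured in both tissues, of 27 listed, against 4.02% of all genes above 0, and their median was 0.048.

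In the other direction, Nt5e, which encodes the ecto-enzyme CD73 that makes adenosine, stood at 13.9, 29.2 and 20.6 CPM in control liver and 9.62, 11.7 and 7.80 under heat stress, and at 3.57, 5.10 and 3.63 in control brain and 6.21, 6.39 and 7.16 in heat stress brain. Mme, which encodes the peptidase neprilysin that degrades amyloid-beta among other peptides, stood at 76.2, 79.1 and 77.2 CPM in control liver and 63.9, 64.4 and 47.8 under heat stress, and at 6.29, 7.05 and 8.04 in control brain and 13.3, 8.94 and 14.3 in heat stress brain. The groups did not overlap in either tissue for these genes, and the differences were -1.81 ± 0.37 and -1.17 ± 0.27. Cacybp, Srsf3, Tcaim, Gin1, Itpa and Hikeshi completed the leading genes of this kind, with heat effects of -0.79 to -0.46 in liver and 0.38 to 0.51 in brain. With correction for length and GC content Cacybp had a difference of -0.84 in place of -1.29, and Gin1 one of -0.59 in place of -1.03. Srsf3 is a splicing factor, Itpa clears deaminated nucleotides and Hikeshi carries HSP70 into the nucleus during heat shock. Hikeshi stood at 27.8, 36.4 and 27.6 CPM in control liver, 24.6, 20.1 and 21.9 in heat stress liver, 18.3, 21.6 and 16.4 in control brain and 27.7, 24.2 and 23.6 in heat stress brain, again without overlap in either tissue.

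Among the 437 genes with a heat effect at an unadjusted p under 0.05 in liver alone, 160 (1.41% of the 11322) had a positive difference and 277 (2.45%) a negative one. The count was 1170 without liver control replicate 1, 279 without liver control replicate 2, 784 without both libraries that carried muscle transcripts, and 464 with correction for length and GC content. In the last of these, 271 of the 437 were sorted the same way. The positive and negative counts were 218 and 231 with size factors of the DESeq2 kind, 234 and 230 with TMM within each tissue, 235 and 229 with the correction and 480 and 304 without both libraries, so that the excess of negative differences depended on these choices.

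Mt1, a metallothionein that binds zinc and copper, stood at 11.7, 6.76 and 7.04 CPM in control liver and 39.4, 32.7 and 55.5 under heat stress. In brain it stood at 110.1, 138 and 104 CPM in control and 137, 190.0 and 145 under heat stress. Liver groups were separate and brain groups overlapped, and the heat effects were 2.31 (95% interval 1.75 to 2.87) and 0.42 (95% interval -0.082 to 0.92). The difference was 1.89 ± 0.35, with an adjusted p of 0.27 (Benjamini-Hochberg, quasi-likelihood test of edgeR) and 2.4e-04 to 0.63 over the alternatives. Mt2 was higher in both tissues, at 1.97 in liver and 0.72 in brain, with a difference of 1.25 ± 0.40.

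The exporter Slc30a10, which moves manganese and zinc out of cells, went the other way, from 78.7, 73.7 and 58.7 CPM in control liver to 32.6, 36.7 and 38.4 under heat stress, while brain stayed between 15.5 and 20.0 CPM. Slc39a14, an importer of zinc, iron and manganese, had 0.084 in liver and -0.41 in brain, and its difference of 0.49 became 0.34 with correction for length and GC content, at an unadjusted p of 0.11 by edgeR. In all, 8 of 10 listed genes of metallothioneins and zinc transport were measured in both tissues. At an unadjusted p under 0.05, 3 lay above 0 and 1 below, against 4.02% and 6.31% of all genes. After correction for length and GC content 2 lay above 0 and 1 below, against 4.33% and 3.5% of all genes. For the metal response element the letters TGCACNC, 1 form of its core, were searched on either strand, and other forms were not. These letters are few and occurred in 12.6% of all promoters. They were found in 3 of the 6 matched genes measured in both tissues, which were Mt1, Mt2 and Slc30a1, and Slc30a1 had a difference of -0.24. The promoter of Mt1, with 2 matches in capitals, is shown as that of the member with the largest difference.
Mt1 promoter, chr8:94178839-94179138, plus strand: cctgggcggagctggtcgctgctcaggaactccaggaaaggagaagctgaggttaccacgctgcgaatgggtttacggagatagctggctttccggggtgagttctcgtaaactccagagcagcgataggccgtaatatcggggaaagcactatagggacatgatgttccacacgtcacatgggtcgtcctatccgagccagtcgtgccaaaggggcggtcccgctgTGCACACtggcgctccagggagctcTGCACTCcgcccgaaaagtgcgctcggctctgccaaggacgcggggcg

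Of the clock genes measured in both tissues 14 had a difference above 0 and 5 below. None passed an adjusted p of 0.05 for the difference in the main edgeR fit. Of 20 listed, 19 were measured in both, and 5 lay above 0 and 2 below at an unadjusted p under 0.05, against 4.02% and 6.31% of all genes, with a median of 0.34 against -0.020 for all genes. Bhlhe41, a repressor in the clock also known as Dec2, stood at 5.15, 3.55 and 7.44 CPM in control liver and 19.1, 25.4 and 22.2 under heat stress, and at 30.9, 30.2 and 35.3 in control brain and 42.1, 36.4 and 37.6 in heat stress brain. Its heat effect was 2.06 (95% interval 1.57 to 2.54) in liver and 0.27 (95% interval -0.15 to 0.69) in brain, a difference of 1.79 ± 0.30 with an adjusted p of 0.17 (Benjamini-Hochberg, quasi-likelihood test of edgeR), and 1.4e-06 to 0.56 over the alternatives.

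Per1, a light- and hormone-inducible repressor, had 1.20 in liver and 0.015 in brain. Usp2, a clock-driven deubiquitinase, stood at 40.4, 10.7 and 20.1 CPM in control liver and 49.9, 53.3 and 83.6 under heat stress, and at 58.2, 42.8 and 39.2 in control brain and 39.3, 44.3 and 53.2 in heat stress brain, where the groups overlapped. Bhlhe40 and the nuclear receptor Nr1d1 had differences of 0.86 and 0.84. Clock, the activating subunit, stood at 52.9, 63.4 and 67.2 CPM in control liver and 43.0, 39.6 and 28.9 under heat stress, and at 64.3, 67.3 and 65.8 in control brain and 66.0, 61.5 and 68.0 in heat stress brain, and the repressor Cry1 had -0.54 and 0.27. Per2 had a difference of -0.0030 and Nr1d2 one of -0.18. The list held 5 above and 3 below with correction for length and GC content, where the shares over all genes were 4.33% and 3.5%. It held 9 above and 3 below without the libraries with muscle transcripts, where the shares over all genes were 10.4% and 8.14%.

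Of 13 listed feedback inhibitors and kinases of cytokine signalling 11 were measured in both tissues, with 4 above 0 and 1 below at an unadjusted p under 0.05, against 4.02% and 6.31% of all genes, and a median of 0.30, or 0.48 after correction for length and GC content. Cish, which damps STAT5 signalling, stood at 17.0, 11.8 and 23.3 CPM in control liver and 46.5, 42.9 and 31.3 under heat stress, and at 4.83, 3.97 and 5.58 in control brain and 4.01, 2.92 and 3.93 in heat stress brain. Socs3, which damps STAT3 signalling by the interleukin 6 family, stood at 7.01, 7.10 and 5.18 CPM in control liver and 10.8, 22.9 and 17.3 under heat stress, and at 2.72, 2.84 and 2.68 in control brain and 1.51, 3.04 and 1.87 in heat stress brain. Liver groups separated for both genes and brain groups overlapped, with 95% intervals in brain of -0.97 to 0.16 and -1.04 to 0.32. The kinases Pim3 and Pim1 had differences of 0.99 ± 0.24 and 0.86 ± 0.29, and Socs5 was the member below 0 at -0.53.

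Of 29 listed acute phase proteins and their regulators 12 were measured in both tissues, since most of the plasma proteins have too few counts in brain, and 3 of the 12 lay above 0 at an unadjusted p under 0.05, against 4.02% of all genes. These were Socs3, the interleukin 1 receptor Il1r1 (0.94) and the transcription factor Stat3 (0.57), the latter 2 through lower levels in brain (-0.66 and -0.43) more than through liver (0.28 and 0.14). With correction for length and GC content Stat3 had 0.38, at an unadjusted p of 0.063 by edgeR. Without the libraries with muscle transcripts 7 of the 12 lay above 0 at that p, where 10.4% of all genes did. Irf7, the interferon regulatory factor, stood at 36.8, 29.8 and 26.3 CPM in control liver and 81.1, 59.6 and 60.0 under heat stress. In brain it stood at 2.02, 2.07 and 1.84 in control and 2.13, 2.74 and 1.74 under heat stress, with a 95% interval of -0.35 to 0.66. Of 35 listed interferon-stimulated genes 33 were measured in both. Irf7 was the sole one of these at an unadjusted p under 0.05, against 4.02% of all genes above 0 and 6.31% below. With correction for length and GC content 3 lay above 0 and 1 below, against 4.33% and 3.5% of all genes. None of 14 MHC genes measured in both had that p, of 15 listed, and 3 lay above 0 at that p without the libraries with muscle transcripts, where 10.4% of all genes did. Summed markers of T cells and natural killer cells stood at 16.3, 21.3 and 28.3 CPM in control liver and 57.4, 36.8 and 40.8 in heat stress liver, without overlap, and at 359 to 479.8 and 327 to 391 in brain, where the list holds Thy1, which neurons also express. Their part in the cytokine and interferon genes of liver was not tested.

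Further genes higher in heat stress liver alone were Foxq1, a forkhead factor, Csrnp1, a nuclear protein of the AXIN1 pathway, Slc8b1, the mitochondrial sodium-calcium exchanger, Cbx7, a Polycomb subunit, and Asns, the asparagine synthetase of the amino acid response. Foxq1 stood at 12.9, 6.87 and 5.31 CPM in control liver and 25.9, 27.5 and 33.7 under heat stress, against 2.44, 1.90 and 1.84 in control brain and 1.63, 2.37 and 1.55 in heat stress brain. Asns stood at 2.78, 2.29 and 4.12 CPM in control liver and 13.3, 5.73 and 7.80 under heat stress, against 72.7, 60.3 and 63.4 in control brain and 66.9, 58.3 and 60.8 in heat stress brain. In both cases liver separated and brain overlapped. In brain the 95% intervals were -0.86 to 0.55 for Foxq1, -0.29 to 0.36 for Cbx7 and -0.58 to 0.42 for Asns. Csrnp1 and Slc8b1 had heat effects of 1.06 and 0.82 in liver and of -0.50 (95% interval -1.01 to 0.015) and -0.41 (95% interval -0.84 to 0.0073) in brain, so that brain made up part of their differences, and the brain groups of Slc8b1 did not overlap. The differences were 1.94 ± 0.43 for Foxq1, 1.56 ± 0.33 for Csrnp1, 1.24 ± 0.26 for Slc8b1, 0.99 ± 0.23 for Cbx7 and 1.63 ± 0.38 for Asns.

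Lower in heat stress liver alone, beside the genes already named, were Tsc22d1, a transcription regulator answering TGF-beta, Morf4l2, a subunit of chromatin acetylation complexes, and Chic1, a membrane-associated protein. Tsc22d1 stood at 231, 193 and 129.7 CPM in control liver and 71.3, 89.2 and 68.1 under heat stress, against 264, 284 and 216 in control brain and 248, 288 and 273 in heat stress brain. The differences were -1.36 ± 0.30, -1.0 ± 0.23 and -1.55 ± 0.35 in the order named, and the 95% intervals in brain were -0.36 to 0.53, -0.11 to 0.58 and -0.28 to 0.66. Tsc22d3, a relative of Tsc22d1 and a glucocorticoid target, had -0.99, and with Ddit4 (-1.38) and the pyruvate dehydrogenase kinase Pdk4 (-1.18) made 3 of 16 glucocorticoid targets measured in both tissues, of 17 listed, that lay below 0 at an unadjusted p under 0.05, with none above, against 6.31% and 4.02% of all genes. The list did not lean that way as a whole, since 9 of the 16 lay above 0 and the median was 0.12. Fkbp5, a co-chaperone of the glucocorticoid receptor, had 0.54 in liver and 0.10 in brain, a difference of 0.44 ± 0.22. Without the libraries with muscle transcripts Pdk4 had -2.21 and Ddit4 had -0.79, the latter at an unadjusted p of 0.061 by edgeR. Corrected for length and GC content, Pdk4 had -1.02, at an unadjusted p of 0.065.

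All 25 listed sterol synthesis genes were measured in both tissues, 4 lay below 0 at an unadjusted p under 0.05 and none above, against 6.31% and 4.02% of all genes, and the median was -0.28. Mvd, a decarboxylase of the mevalonate pathway, stood at 89.7, 57.9 and 38.8 CPM in control liver and 35.6, 34.3 and 19.2 under heat stress, against 15.3, 14.5 and 12.1 in control brain and 17.6, 13.6 and 13.2 in heat stress brain. The later enzymes Msmo1 and Sqle had differences of -0.71 ± 0.27 and -0.60 ± 0.27. After correction for length and GC content 5 lay below 0, against 3.5% of all genes, and the median was -0.26. Without the libraries with muscle transcripts 3 lay below 0 and 2 above, where 8.14% and 10.4% of all genes did, and Sqle had -0.46 at an unadjusted p of 0.11 by edgeR.

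Of the 382 genes with a heat effect at an unadjusted p under 0.05 in brain alone, 150 (1.32%) were lower in heat stress brain relative to liver and 232 (2.05%) higher. The count was 196 with correction for length and GC content, of which 133 were among the 382. It was 774 without liver control replicate 1, 209 without liver control replicate 2, 197 without liver heat stress replicate 2, 124 and 691 without brain control replicates 1 and 2, and 216 and 232 without brain heat stress replicates 1 and 2. Without brain control replicate 3, which stood apart in habenula and thalamus markers, it was 265, with 219 and 46 lower and higher in heat stress brain relative to liver. The split turned with the scaling too, since the genes lower and higher in heat stress brain relative to liver were 232 and 129 with size factors of the DESeq2 kind, 205 and 151 with TMM within each tissue, 267 and 163 with DESeq2 and 132 and 64 with correction for length and GC content.

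Endothelial genes had lower levels in heat stress brain, 10 of 14 at an unadjusted p under 0.05, against 4.2% of all genes measured in both tissues. None had that p in liver, where 3.33% of all genes were higher and 5.24% lower. Of 18 listed, 14 were measured in both tissues, 10 of the 14 lay above 0 at an unadjusted p under 0.05 against 4.02% of all genes, and the other 4 were above 0 as well. The median heat effect was -0.83 in brain and 0.22 in liver. Pecam1, the adhesion molecule CD31, stood at 20.0, 9.12 and 11.5 CPM in control brain and 5.64, 7.79 and 6.32 under heat stress. In liver it stood at 16.7, 15.7 and 15.9 CPM in control and 20.0, 20.2 and 18.5 under heat stress. The groups did not overlap in either tissue and the brain controls spread over a wide range, with replicate 1 the highest. The 95% interval in liver was -0.25 to 0.81. The difference was 1.32 ± 0.35, with an adjusted p of 0.52 (Benjamini-Hochberg, quasi-likelihood test of edgeR) and 0.073 to 0.76 over the alternatives.

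The growth factor receptors Kdr and Tek had differences of 1.39 ± 0.39 and 1.22 ± 0.33, the clotting factor carrier Vwf 1.72 ± 0.67, the barrier transporters Slc2a1 and Abcb1a 0.79 ± 0.32 and 1.14 ± 0.45, and the tight junction gene Cldn5 0.74 ± 0.30. Outside the list, the leading genes of this kind included Sox18, a transcription factor of vessels, and Eng, a co-receptor of TGF-beta in vessels, at 1.59 ± 0.39 and 1.33 ± 0.35. Sox18 stood at 5.16, 3.26 and 3.63 CPM in control brain and 1.07, 1.70 and 1.93 under heat stress, against 7.42, 5.38 and 5.71 in control liver and 6.09, 8.64 and 7.01 in heat stress liver. The 95% intervals in liver were -0.36 to 0.81 for Sox18 and -0.15 to 0.87 for Eng. The summed level of the 18 markers was 223 to 382 CPM in control brain and 168 to 207 in heat stress brain, and 465 to 493 and 529 to 559.8 in liver. The median difference was 1.00 with correction for length and GC content. In that setting 11 of 14 lay above 0 at an unadjusted p under 0.05, against 4.33% of all genes. Without the liver libraries with muscle transcripts 9 did, with a median of 1.06, where 10.4% of all genes lay above 0.

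**Figure D3:**
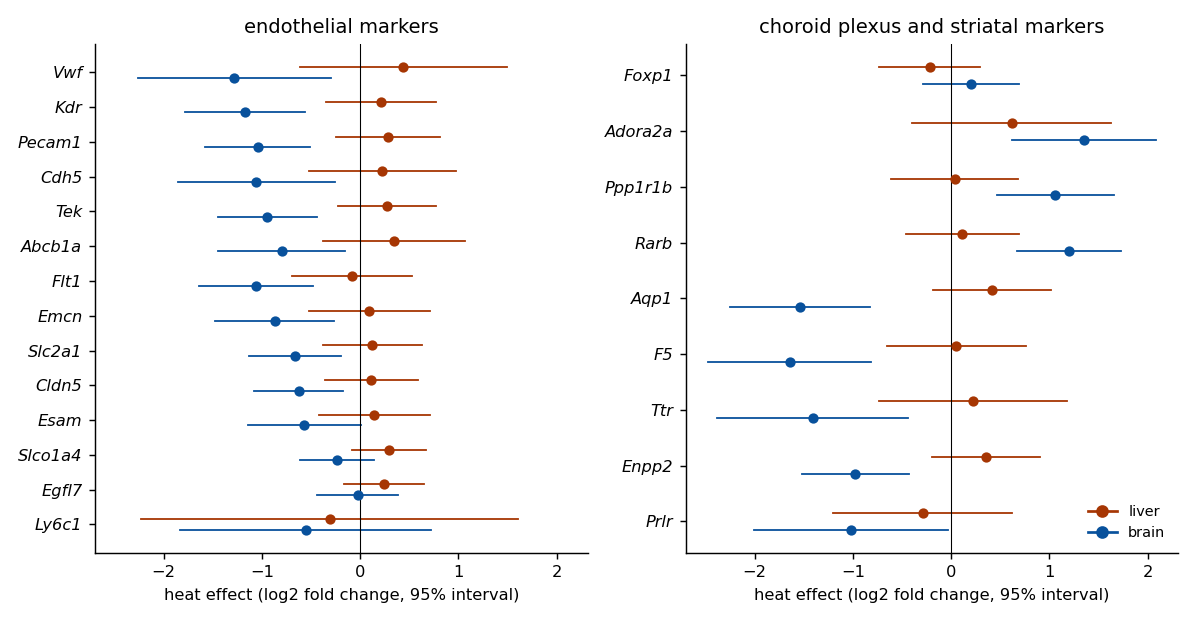
Heat effects (log2 fold change, horizontal axes) with 95% intervals in liver and in brain for the endothelial markers and for the choroid plexus and striatal markers measured in both tissues. In the endothelial and choroid plexus genes the brain points lie to the left of 0 and most of the liver points near or right of 0, and the striatal genes Rarb, Ppp1r1b and Adora2a lie to the right of 0 in brain.

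Markers of the choroid plexus had lower levels in heat stress brain too. Of 14 listed, 5 were also measured in liver, where hepatocytes express several of them, and 4 of the 5 lay above 0 at an unadjusted p under 0.05, against 4.02% of all genes. Aqp1, a water channel, stood at 6.85, 4.09 and 10.7 CPM in control brain and 2.32, 3.53 and 1.55 under heat stress, against 105, 119.8 and 117 in control liver and 129.8, 175 and 151 in heat stress liver. Enpp2, the lysophospholipase autotaxin, stood at 467, 376 and 685 CPM in control brain and 273, 321 and 183 under heat stress, against 101, 69.1 and 87.3 in control liver and 113, 96.7 and 120.2 in heat stress liver. Brain groups were separate for both genes, and the 95% intervals in liver were -0.18 to 1.02 and -0.20 to 0.90. Ttr, the thyroid hormone carrier transthyretin, had -1.41 in brain and 0.22 in liver, and the clotting factor F5 had -1.64 and 0.053.

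The summed choroid plexus markers lay at 1258 to 2470.3 CPM in control brain and 369.9 to 1116 in heat stress brain, and those of the striatum at 542 to 823 and 780.3 to 1751. Striatal genes ran the other way, with 2 of the 4 measured in both tissues, of 14 listed, below 0 at an unadjusted p under 0.05, against 6.31% of all genes, and 1 without the liver libraries with muscle transcripts. Ppp1r1b, the dopamine-regulated phosphatase inhibitor DARPP-32, stood at 107, 161 and 91.2 CPM in control brain and 239.6, 167 and 342 under heat stress, and the retinoic acid receptor Rarb at 6.71, 10.5 and 7.37 and 16.6, 14.8 and 25.2. Without the liver libraries with muscle transcripts Ppp1r1b had -0.67, at an unadjusted p of 0.14 by edgeR, in place of -1.03. The part of these region markers in the other genes with a heat effect in brain was not tested.

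Macrophage and microglia genes gave 3 of 15 measured in both tissues above 0 at an unadjusted p under 0.05, of 21 listed, against 4.02% of all genes. Csf1r, their growth factor receptor, stood at 75.4, 63.6 and 47.3 CPM in control brain and 39.5, 44.6 and 41.3 under heat stress, against 28.9, 25.7 and 36.1 in control liver and 50.1, 35.8 and 34.4 in heat stress liver. Cx3cr1 and Itgam had differences of 0.96 ± 0.36 and 0.98 ± 0.41. Without the libraries with muscle transcripts 2 of the 15 lay above 0 at an unadjusted p under 0.05, where 10.4% of all genes did. Itgam then had 0.81, at an unadjusted p of 0.12 by edgeR. Of the 15, 5 lay below 0, P2ry12 (-0.36) and Aif1 (-0.49) among them, and none of these reached that p.

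Among genes with higher levels in heat stress brain alone, Nhp2 and Snrpf, small proteins of RNA processing, Alkbh7, a mitochondrial dioxygenase, and Mrps22, a mitochondrial ribosomal protein, were among the leading ones. Nhp2 stood at 19.1, 22.5 and 17.4 CPM in control brain and 29.9, 31.6 and 28.4 under heat stress, against 54.8, 56.7 and 42.8 in control liver and 46.4, 37.1 and 45.3 in heat stress liver. Snrpf stood at 11.9, 15.6 and 14.3 CPM in control brain and 20.1, 20.4 and 20.4 under heat stress, against 20.6, 22.9 and 23.4 in control liver and 20.1, 19.4 and 20.0 in heat stress liver. Brain groups did not overlap in either gene, and the 95% intervals in liver were -0.60 to 0.080 and -0.48 to 0.14. With correction for length and GC content Nhp2 had -0.75 in place of -0.87, and Snrpf had -0.080 in place of -0.72.

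Over the 11179 genes with a length, the heat effect in brain correlated with log2 transcript length at a Pearson r of -0.41 and the heat effect in liver at -0.090, and the difference at 0.22, as descriptions across genes that share the same libraries. With the genes in 5 bins of equal size by length, in the bin of the shortest transcripts the median heat effect was 0.20 in brain and 0.025 in liver, and in that of the longest -0.17 and -0.048. Relative to the mean of its tissue, the mean of the shortest less the longest bin was -0.286, -0.0408 and -0.211 in the control brains and 0.159, 0.344 and 0.0343 in the heat stress brains. It was -0.126, 0.196 and -0.206 in the control livers and 0.123, -0.189 and 0.202 in the heat stress livers. All heat stress brains lay above all control brains, while the livers overlapped by treatment. The livers with the label suffix, control replicate 2 and heat stress replicates 1 and 3, had 0.196, 0.123 and 0.202. Those without it had -0.126, -0.206 and -0.189, so that the livers separated by the suffix. GC content correlated with the difference at a Pearson r of 0.37, with brain at -0.30 and liver at 0.23. The source of the relation was not tested.

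**Figure D4:**
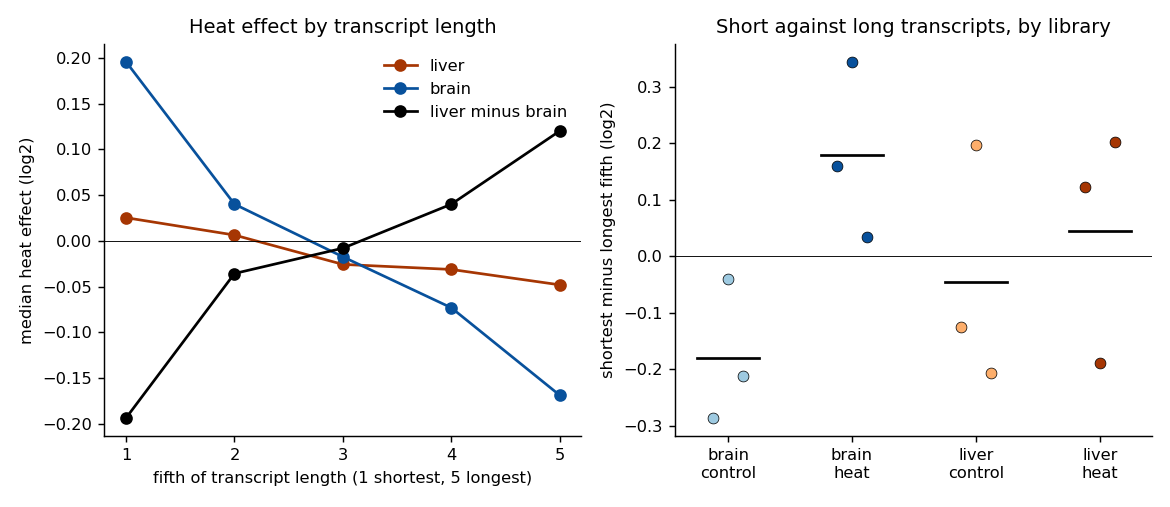
Left, median heat effect (log2) in liver, in brain and their difference by bin of transcript length over the 11179 genes with a length. Right, mean log2 level of the shortest less the longest bin in each library, relative to the mean of its tissue, with lines at the group means, where the heat stress brains lie above the control brains and the livers overlap.

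Families of small proteins were among those that moved with the correction. The cytosolic ribosomal proteins had 2 of 82 below 0 at an unadjusted p under 0.05, with a median of -0.41, and 1 with a median of -0.22 after correction for length and GC content. The mitochondrial ribosomal proteins had 9 of 78 below 0 at an unadjusted p under 0.05, with a median of -0.32, and 3 with a median of -0.17 after correction for length and GC content. Of all genes measured in both tissues 6.31% lay below 0 at that p before the correction and 3.5% after. The subunits of oxidative phosphorylation had 9 of 78 below 0 at an unadjusted p under 0.05, with a median of -0.41, and 1 with a median of -0.13 after correction for length and GC content. The proteasome subunits had 9 of 37 below 0 at an unadjusted p under 0.05, with a median of -0.22, and 0 with a median of -0.088 after correction for length and GC content. Without the liver libraries with muscle transcripts the counts below 0 at that threshold were 6, 13, 21 and 9 in the order given. In that setting 8.14% of all genes lay below 0, and 2 oxidative phosphorylation subunits lay above 0. In each family the median heat effect in brain (0.65, 0.26, 0.45 and 0.22 in that order) was further from 0 than that in liver (0.25, -0.046, 0.024 and -0.030). Ribosomal protein genes have many processed copies in the genome, so that their counts are uncertain. Of 38 SR and hnRNP splicing factors 5 lay below 0 at an unadjusted p under 0.05, with a median of -0.16. After the correction 1 did, with a median of 0.0011.

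**Figure D5:**
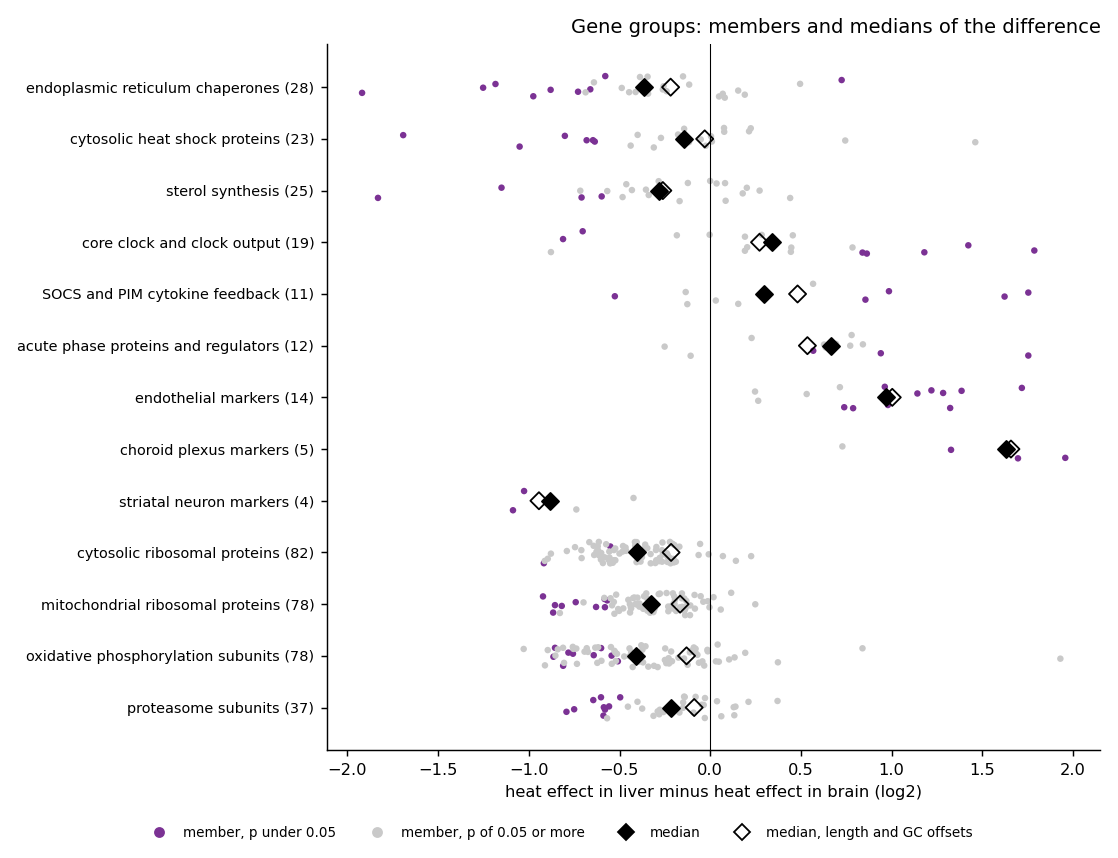
Heat effect in liver minus heat effect in brain (log2, horizontal axis) of the members of 13 gene groups measured in both tissues, with the number of members in brackets, purple for an unadjusted p under 0.05, and diamonds at the medians before (filled) and after (open) correction for length and GC content. The open diamonds of the ribosomal, oxidative phosphorylation and proteasome groups lie nearer to 0 than the filled ones, and those of the endothelial, choroid plexus, striatal and sterol groups lie beside them.

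The remaining groups gave few genes. Immediate early genes had 2 of 12 measured in both tissues above 0 at an unadjusted p under 0.05, of 18 listed, which were the AP-1 subunits Fosl2 (0.94) and Junb (1.28), against 4.02% of all genes. Without the libraries with muscle transcripts Fosl2 had 0.59, at an unadjusted p of 0.099 by edgeR, and Junb had 0.66, and the median of the 12 was 0.19 in place of 0.76. Corrected for length and GC content, Junb had 0.99, at an unadjusted p of 0.16. Insulin, IGF and growth hormone signalling had 3 of 16 above 0 at an unadjusted p under 0.05, of 18 listed, against 4.02% of all genes. These were Igf1r, the binding protein Igfbp2 (1.16) and the forkhead factor Foxo3 (0.77). With correction for length and GC content Foxo3 had 0.54, at an unadjusted p of 0.058 by edgeR. Large synaptic and scaffold genes, 25 listed, had 1 of 19 above 0 and 1 below at an unadjusted p under 0.05, against 4.02% and 6.31% of all genes. These were Ahnak (0.74) and Dlgap1 (-0.73). The median was 0.40, and 0.22 after correction for length and GC content. In brain by itself 9 of the 19 were lower at an unadjusted p under 0.05, against 4.2% of all genes. After that correction 1 of the 19 was, against 332 of the 11322 genes. Ahnak had 0.57 with it and 0.60 without the libraries with muscle transcripts, at unadjusted p of 0.091 and 0.092 by edgeR, and Dlgap1 had -0.46 without them, at 0.24. None of 17 fatty acid synthesis genes had that p. Rbm3 and Cirbp, RNA-binding proteins known for induction by cold, were higher under heat stress in both tissues, at 0.48 and 0.66 in liver and 0.77 and 0.53 in brain. Their differences of -0.29 (95% interval -0.71 to 0.13) and 0.13 (-0.36 to 0.62) did not reach an unadjusted p of 0.05.

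Among genes measured in a single tissue, where an effect in the other rests on few reads, 298 of 3484 measured in brain (8.55%) and 53 of 942 measured in liver (5.63%) had an unadjusted p under 0.05. The leading ones were Rad51c, a recombination protein, Mfap3l, Nkain2, Iglon5, an adhesion molecule of neurons, Zfp366 and Wnt9a, a secreted signal. Rad51c stood at 1.13, 1.37 and 1.46 CPM in control liver and 0.321, 0.417 and 0.452 under heat stress, against 2.53, 2.19 and 2.29 in control brain and 3.39, 2.62 and 2.58 in heat stress brain. Iglon5 stood at 0.515, 0.458 and 0.399 CPM in control liver and 0.962, 1.35 and 1.13 under heat stress, against 28.0, 20.9 and 26.0 in control brain and 20.1, 15.7 and 21.6 in heat stress brain. Zfp366 had no count in any control liver, so that no fold is given for it.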

How the data were processed

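Polyadenylated RNA of brain and liver was sequenced in 12 libraries, 3 per tissue and treatment. The deposited values used here are whole-number read counts per gene symbol, not normalised, made by the authors with Trimmomatic 0.39, HISAT2 2.2.1 and featureCounts of Subread 2.0.1 on mm10 according to the submitters' processing notes. The study's methods also describe another aligner and counter, and whether counting used the strand is not given in the sources used here. Tables of the authors' own fold changes and p-values were not used.

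Counts were fitted in R 4.3.3 with edgeR 4.0.16 (TMM scaling, robust quasi-likelihood F test, Benjamini-Hochberg adjustment over the 15824 genes tested) in 1 model of 4 groups, and the contrast was the tissue-by-treatment interaction. Genes needed a count of about 10 in the smallest group and 15 in total by filterByExpr. Fold changes, errors and 95% intervals come from that fit, and levels are TMM-normalised CPM. Alternatives were DESeq2 1.42.0, limma 3.58.1 with voom and sample weights, other scalings and filters, offsets for transcript length and GC content from GENCODE (24366 of 25239 symbols matched), replicate blocks, a covariate for an unexplained suffix in 3 liver labels, and leaving out libraries. The steps were tested on simulated data. Promoters came from RefSeq on GRCm38.p6.

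Genes named are those of smallest unadjusted interaction p in each direction (10), among opposite effects (8 per direction), in each single tissue (8 per direction), in each list (up to 4) and among genes measured in 1 tissue (up to 6), without predicted genes. The others in the text were chosen after their values were seen. The members and lists were chosen with earlier results of these data known. Some genes that the rule selects are not reported here.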

Additional observations from a re-analysis of the deposited data

Results flagged for a closer look

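Tfrc, the transferrin receptor gene, stands out because its heat effect differed between liver and brain by the test of the difference itself, at -1.84 on the log2 scale with an adjusted p of 0.049 (Benjamini-Hochberg, quasi-likelihood test of edgeR). The adjusted p was under 0.05 in 7 of 25 alternatives. It was 0.36 with the replicate number as a block and 0.21 with a block for a shared mouse (same test). All 3 heat stress livers lay below the control livers, and all 3 heat stress brains lay above the control brains.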

How the results depend on the processing

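The limits lie in 3 libraries per group and 2 liver libraries with muscle transcripts. They also lie in an unexplained suffix in 3 liver labels and in a relation of the brain effects to transcript length. Main counts were 1 gene at an adjusted p under 0.05, 1525 at an unadjusted p under 0.05, 34 opposite, 437 in liver alone, 382 in brain alone and 111 genes of all lists searched, described or not, each counted once. The gene count at the adjusted p was 0 with DESeq2-type size factors, upper quartile scaling, TMM within each tissue, no filter, either replicate block, and length and GC offsets with or without the block, 2 with voom and with the filter in both tissues, 43 with DESeq2, 4 with the suffix covariate, 7 without both muscle-bearing livers, and 0 to 4 leaving out 1 library. The 1525 became 2846 with voom, 1014 with the block and offsets, 2618 with the suffix, 2307 without both livers, and 983 to 3041 leaving out 1 library. The 34 became 200, 151 and 158 with voom, the suffix and without both livers, and 10 to 240 leaving out 1. The 437 became 759, 754 and 784 in the same order, and 279 to 1170. The 382 became 1034, 858 and 761, then 246 with the block by number, 196 with the offsets, 160 with both, and 124 to 774. The 111 became 193 with voom, 241 with the suffix, and 64 to 200. Causes of these shifts were not tested.

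Directions turned with the offsets, alone and then with the block, for Rbm3 (0.047, 0.049), Homer1 (0.083, 0.10), Uqcrb (0.015, 0.019), the cold-inducible median (0.11, 0.12), the fatty acid synthesis median (-0.16, -0.15) and the splicing factor median (0.0011, 0.015). Without liver control replicate 3, Cirbp was -0.023 and the iron handling median -0.058. Without liver heat stress replicate 3 the iron handling, glucocorticoid and fatty acid oxidation medians were -0.022, -0.036 and -0.043. Without liver control replicate 1 the cold-inducible median was 0.0023, without replicate 2 fatty acid synthesis was -0.26 and fatty acid oxidation -0.0027, and without liver heat stress replicate 2 fatty acid synthesis was -0.24. Leaving out 1 library, the highest values were 0.29 for Cirbp, 0.16 for iron handling, 0.16 for glucocorticoid targets, 0.27 for fatty acid synthesis and 0.21 for fatty acid oxidation, and the lowest cold-inducible median was -0.17. Over named genes, 3422 values kept direction and side of the threshold, 47 passed it, 18 lost it and 7 turned. With the replicate number as a block 1146 genes had an unadjusted p under 0.05. For the pairing, each library's log2 levels were taken as deviations from the mean of its group, over genes measured in both tissues. These deviations correlated between same-numbered brain and liver libraries at 0.35, 0.34 and 0.11 in control and 0.050, -0.20 and 0.037 under heat stress. Differently numbered pairs lay at -0.36 to 0.026 in control and -0.21 to 0.17 under heat stress. Deviations cancel within a group, so that the correlations of these pairs are not independent of each other. The same-numbered control pairs were thus all over 0.1 and the same-numbered heat stress pairs were not. A pairing by mouse was neither stated nor settled by the values. Either block left no gene at an adjusted p under 0.05.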
